A study of Mus musculus with 6 samples.

Results

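Mitochondrial ribosomal protein genes were read as 1 gene module in RNA-seq counts of mouse myeloid cells. Its members were the protein-coding genes whose symbols begin with Mrpl (large subunit) or Mrps (small subunit) followed by a number, with annotated pseudogenes left out. The count table held 77 of the 78 annotated members among its 25751 genes, 48 named for the large and 29 for the small subunit. Mrpl53 was not analysed here. The symbol rule used no measured value, although the module was chosen with earlier results of these data known. All 77 passed the filter on low counts, with 110 to 5116 counts in each library.

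The study asked how trimethylamine N-oxide (TMAO), a metabolite that the liver makes from a product of gut bacteria, changes gene expression in myeloid cells. Poly(A)-selected, paired-end libraries were made from primary cells labelled as wild-type mouse myeloid cells at 24 h, 3 labelled Control and 3 labelled TMAO. The dose, the vehicle, the age of the mice and the way the cells were obtained are not given in the labels. The descriptions call the treated samples T-BMDM and the others Control, and the labels do not explain the difference in naming. Nothing in them states that the 3 libraries of a group are separate cultures or mice, so each p-value rests on a spread between libraries that may be technical.

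The mitochondrial ribosome translates the few messenger RNAs made from mitochondrial DNA, all of which code for core proteins of the respiratory chain and ATP synthase. Its ribosomal RNAs are transcribed inside the organelle, whereas its proteins are encoded by nuclear genes, made in the cytosol and imported. Compared with its bacterial relatives it has lost RNA and gained many proteins with no bacterial counterpart.

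The libraries held 37759007 to 41735109 counts. CPM below is a gene's count relative to the total of its library, with edgeR's TMM factors applied, and a gene is called where its adjusted p in edgeR's quasi-likelihood test over 14626 genes is under 0.05. Markers of some other cells moved with the groups, where 33.0% of all genes tested were called higher and 32.7% lower. Neutrophil and granulocyte precursor markers summed to 43.0 to 55.7 CPM in the control and 3774 to 5047 CPM in the TMAO libraries, with 13 of 13 called higher and the defining granule genes Mpo and Ctsg at or near 0 CPM in the controls. Mitosis and DNA replication markers summed to 116 to 123 against 460 to 524 CPM, with 14 of 14 called higher. Macrophage markers summed to 42623 to 47140 CPM in control and 37674 to 46059 CPM in TMAO libraries, a sum carried by Lyz2 (means of 37023 and 37357 CPM, not called). Of the 8, C1qa was called higher and 5 were called lower, among them Mertk (162 to 16.3 CPM), Fcgr1 (251 to 59.9 CPM) and Adgre1 (1705 to 526 CPM). B cell markers summed to 2.44 to 3.58 against 5.92 to 7.95 CPM and T and NK cell markers to 0.206 to 0.509 against 1.87 to 2.50 CPM. Of the B cell markers 4 of 5 were called higher. Of the T and NK cell markers only Nkg7 was tested (higher, means of 0 and 1.96 CPM), and it made up most of the TMAO sum. Cd3d, Cd3e and Cd3g were at 0 to 0.104 CPM in the 6 libraries. Klrb1c, also not tested, went the other way, at 0.206, 0.411 and 0.460 against 0.126, 0.110 and 0.104 CPM. Erythroid markers summed to 0.967 to 1.89 against 0.782 to 1.10 CPM, with overlap, and 1 of the 2 tested (Hbb-bs) was called lower. Stromal markers summed to 3.04 to 3.25 against 4.11 to 5.01 CPM, with 1 of 4 (Pdgfrb) called higher. The part of these differences in the results below was not tested, and in bulk libraries fewer cells of a type and less RNA per cell cannot be told apart.

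Most mitochondrial ribosomal protein genes were higher after TMAO, by moderate amounts. Of the 77, 64 were called higher, against 33.0% of all genes tested, and 1 was called lower, against 32.7%. The remaining 12 were not called. The median log2 fold change of the 77 was 0.67, with a range from -0.40 to 1.84, and the median over all genes tested was 0.01. Among the 64, 20 rose by less than 1.5-fold, 33 by 1.5- to 2-fold and 11 by at least 2-fold, a call that 15.7% of all genes met. In 63 members every TMAO library was above every control library, against 35.6% of all genes, and in 1 member every TMAO library was below, against 35.4%. Together the 77 genes made up 1830, 2101 and 1797 CPM in the control libraries and 2594, 3449 and 3048 CPM in the TMAO libraries, so the module took a larger part of the reads in every TMAO library than in any control.

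**Figure D1:**
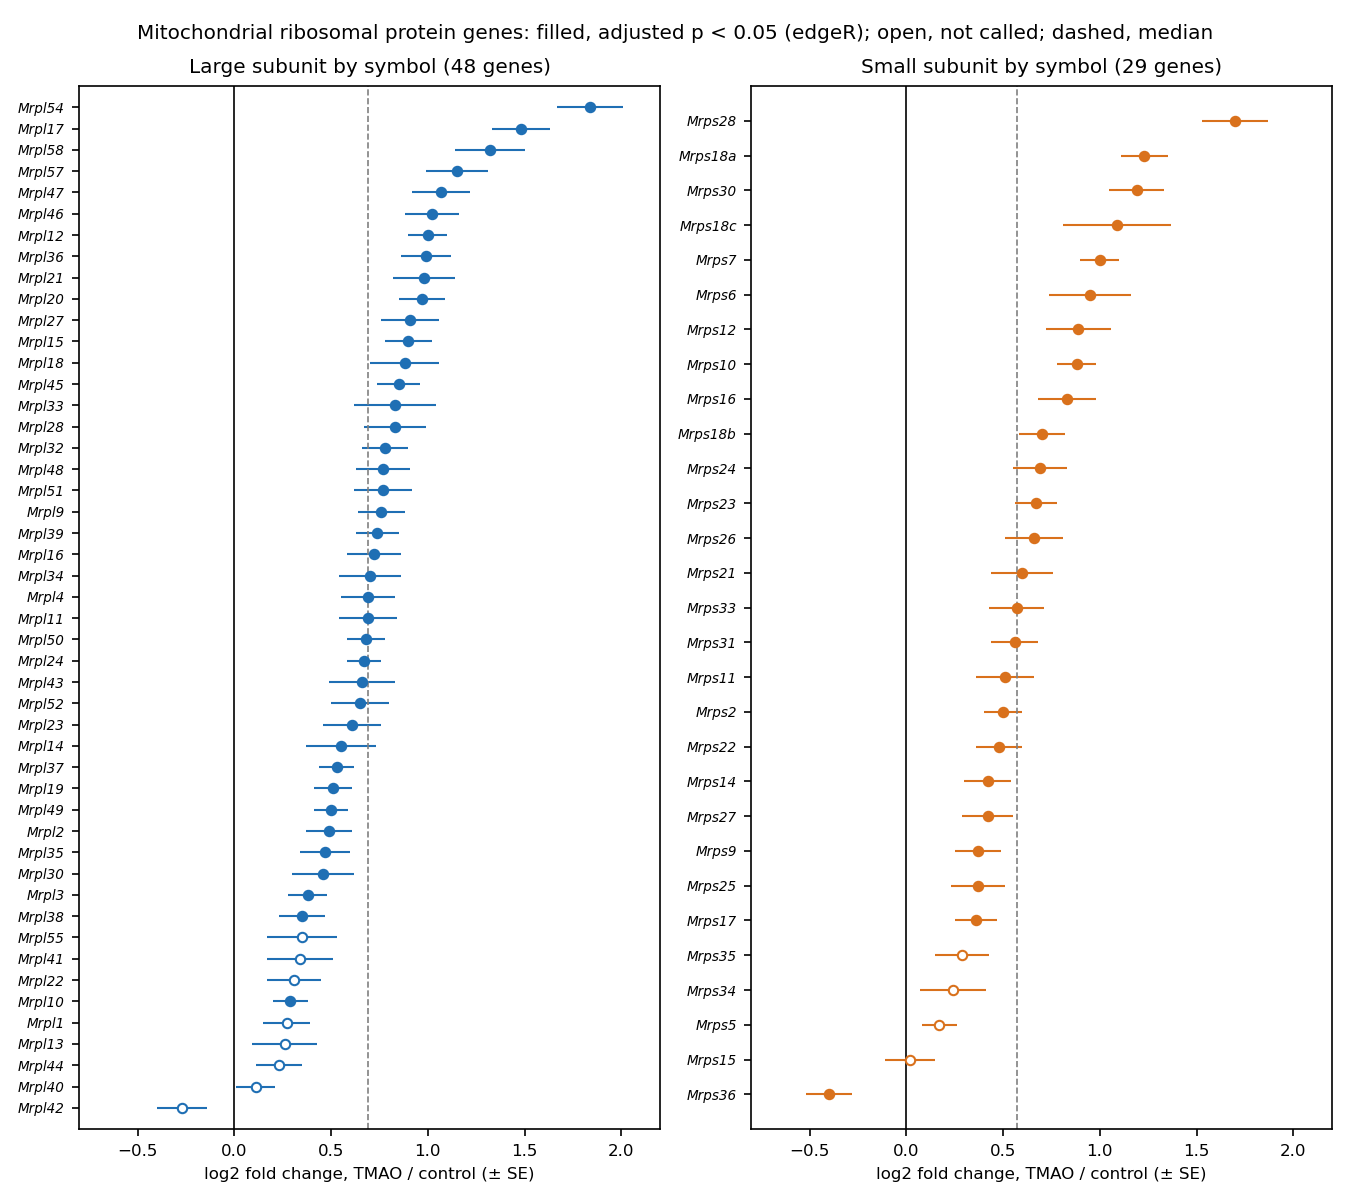
Log2 fold change, TMAO over control (x axis), of each of the 77 genes, large subunit left and small subunit right, ordered by value. Points are edgeR estimates, bars are SE, filled points are called (adjusted p under 0.05) and dashed lines mark the subunit medians of 0.69 and 0.57. All but 2 genes, Mrpl42 and Mrps36, lie above 0.

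In the large subunit, 40 of 48 genes were called higher, none lower and 8 were not called (median log2 fold change 0.69). The gene with the highest fold change was Mrpl54, which codes for a large subunit protein with no bacterial counterpart. It stood at 16.7, 17.3 and 12.9 CPM in the control libraries and at 43.1, 68.8 and 56.1 CPM in the TMAO libraries. The groups did not overlap, and the log2 fold change was 1.84 ± 0.17 (SE; edgeR adjusted p = 7.62e-06). Mrpl17, whose protein sits at the exit of the tunnel for the growing peptide, was at 32.8, 35.1 and 29.2 against 71.2, 110 and 89.2 CPM. Each TMAO library was again above the highest control (log2 fold change 1.48 ± 0.15, edgeR adjusted p = 1.27e-05). Mrpl58 codes for a peptidyl-tRNA hydrolase built into the large subunit that frees stalled ribosomes, and it was at 13.5, 18.6 and 14.8 against 29.8, 48.3 and 39.3 CPM. Its log2 fold change was 1.32 ± 0.18 (edgeR adjusted p = 8.89e-05). Mrpl57 was at 15.0, 17.3 and 12.4 against 27.3, 39.9 and 32.3 CPM, a log2 fold change of 1.15 ± 0.16 (edgeR adjusted p = 1.17e-04). In all 4 of these genes TMAO 1 was the lowest and TMAO 2 the highest of the treated libraries, with no overlap with the controls.

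The 4 large subunit genes with the smallest called rise were 1.22- to 1.38-fold higher. Mrpl10, which codes for the protein at the base of the flexible stalk, was at 28.0, 30.0 and 28.8 against 34.6, 35.8 and 35.6 CPM (log2 fold change 0.29 ± 0.09, edgeR adjusted p = 0.0134). Mrpl38, of the central protuberance, was at 29.6, 33.1 and 26.6 against 33.5, 41.3 and 39.2 CPM (0.35 ± 0.12, edgeR adjusted p = 0.0213). In both genes the groups stood apart, although TMAO 1 for Mrpl38 lay just above the highest control. Mrpl3, whose protein reaches towards the peptidyl transferase centre, was at 33.2, 32.4 and 33.2 against 38.3, 47.0 and 43.0 CPM (0.38 ± 0.10, edgeR adjusted p = 0.00656). Mrpl30 was at 36.4, 40.6 and 35.4 against 39.5, 64.8 and 50.3 CPM (0.46 ± 0.16, edgeR adjusted p = 0.0249), and here TMAO 1 fell below the highest control, so the groups overlapped. The calls of Mrpl10, Mrpl30 and Mrpl38 were lost when single libraries were left out: Mrpl30 and Mrpl38 without Control 1, Control 3, TMAO 2 or TMAO 3, and Mrpl10 without Control 1 or TMAO 3. Beyond the members given in full here, leaving out 1 library ended the call of Mrpl14 (Control 1, Control 3, TMAO 2 or TMAO 3), Mrps27 (Control 1 or TMAO 3), Mrps14 (Control 1) and Mrps11 (Control 3).

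In the small subunit, 24 of 29 genes were called higher, 1 lower and 4 were not called (median log2 fold change 0.57). Mrps28 codes for the mitochondrial relative of bacterial S1 and was at 7.56, 9.74 and 7.24 against 21.5, 32.0 and 26.3 CPM. The groups did not overlap (log2 fold change 1.70 ± 0.17, edgeR adjusted p = 1.13e-05). Mrps18a was at 31.3, 36.8 and 35.3 against 68.2, 91.4 and 83.3 CPM (1.23 ± 0.12, edgeR adjusted p = 1.01e-05), and Mrps30 was at 14.3, 15.0 and 12.0 against 25.7, 36.1 and 32.3 CPM (1.19 ± 0.14, edgeR adjusted p = 4.13e-05). In structures of the mammalian mitochondrial ribosome both of these proteins sit in the large subunit in spite of their symbols. Mrps18c, the member of the S18 family that takes the bacterial place in the small subunit, was at 4.35, 5.36 and 4.75 against 6.18, 15.4 and 9.31 CPM. TMAO 2 was far above TMAO 1, and the error was accordingly wide (1.09 ± 0.28, edgeR adjusted p = 0.00561). In the annotation used here 23.2% of the exonic bases of Mrps18c are shared with an uncharacterised model on the same strand, so its reads cannot be told apart from that model's.

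Among the small subunit genes with the smallest called rise, Mrps17 was at 44.5, 48.9 and 46.8 against 55.2, 69.2 and 55.3 CPM (0.36 ± 0.11, edgeR adjusted p = 0.0136). Mrps9 was at 31.1, 35.2 and 31.9 against 35.6, 49.5 and 41.3 CPM (0.37 ± 0.12, edgeR adjusted p = 0.0244). In both, the lowest TMAO library was above the highest control. Mrps25 was at 15.5, 19.3 and 18.8 against 19.3, 26.5 and 23.6 CPM (0.37 ± 0.14, edgeR adjusted p = 0.0362), with TMAO 1 level with Control 2 to the digits given. Of the exonic bases of Mrps25, 69.8% lie opposite exons of Nr2c2, and the strand setting of the counting is not given in the sources used here. The calls of Mrps9 and Mrps25 were lost without Control 1, Control 3, TMAO 2 or TMAO 3, and that of Mrps17 without Control 1.

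Mrps36 was the only member called lower. It stood at 29.7, 28.8 and 31.4 CPM in the control libraries and at 19.5, 25.7 and 22.8 CPM in the TMAO libraries. Every TMAO library was below every control (log2 fold change -0.40 ± 0.12, edgeR adjusted p = 0.0104). First listed as a small subunit protein, the product of Mrps36 is now known as a subunit of the 2-oxoglutarate dehydrogenase complex of the tricarboxylic acid cycle. The other 4 small subunit genes that were not called higher had log2 fold changes from 0.02 to 0.29.

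Among the 12 members that were not called, 11 had log2 fold changes between 0.02 and 0.35. Mrps15 was at 51.5, 60.4 and 48.8 against 45.5, 62.2 and 54.9 CPM, and the groups overlapped (0.02 ± 0.13, edgeR adjusted p = 0.917). Mrpl42 was at 42.1, 49.6 and 41.6 against 31.9, 44.0 and 34.5 CPM (-0.27 ± 0.13, edgeR adjusted p = 0.0896), the only uncalled member below 0. Mrps5, at 28.5, 28.3 and 26.9 against 28.9, 33.3 and 32.0 CPM, did not overlap between the groups but was not called (0.17 ± 0.09, edgeR adjusted p = 0.133). The other uncalled members were Mrpl1, Mrpl13, Mrpl22, Mrpl40, Mrpl41, Mrpl44, Mrpl55, Mrps34 and Mrps35, and in each of them the groups overlapped.

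By place in the ribosome, with Mrps18a and Mrps30 counted in the large subunit and Mrps36 left out, 42 of 50 large and 22 of 26 small subunit genes were called higher and none lower. Over all genes tested, 33.0% were called higher and 32.7% lower, which is also the background of the counts by region and descent below. The median log2 fold changes of the large and small subunit genes by place were 0.69 and 0.56. In the stalk that recruits translation factors, Mrpl10, Mrpl11 (0.69 ± 0.15) and Mrpl12 (1.00 ± 0.10) were all called higher. Around the peptide exit, 5 of 6 genes rose, Mrpl17, Mrpl23 (0.61 ± 0.15), Mrpl24 (0.67 ± 0.09), Mrpl45 (0.85 ± 0.11) and Mrpl47 (1.07 ± 0.15), while Mrpl22 stood at 0.31 ± 0.14. Mrpl45 codes for the protein that ties the ribosome to the inner membrane. Of 8 genes of the central protuberance, 6 rose, with Mrpl46 (1.02 ± 0.14) the highest, and Mrpl40 (0.11 ± 0.10) and Mrpl55 (0.35 ± 0.18) did not pass. At the mRNA entrance, Mrps24 rose (0.69 ± 0.14) and Mrps5 did not pass. With the length trend described below removed, 2 of the 3 stalk genes, 4 of the 6 at the exit and 4 of the 8 of the central protuberance were called higher. Mrpl40, of the protuberance, was called lower. The background over all genes was then 32.4% higher and 28.2% lower, and these regions hold few genes. Mrpl23 (0.14), Mrpl38 (0.01), Mrpl52 (0.13), Mrpl10 (0.02) and Mrps24 (0.26) lost their calls, while Mrps5 gained one (0.49, edgeR adjusted p = 0.00112). The protuberance median fell from 0.71 to 0.29. Split by descent, the medians were 0.69 over 30 large subunit genes with a bacterial counterpart (26 higher) and 0.71 over 20 without (16 higher), and 0.64 over 16 small subunit genes with one (14 higher) and 0.52 over 10 without (8 higher). With the length trend removed these 4 medians were 0.43, 0.57, 0.47 and 0.27.

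The difference between the subunits was small. The large subunit median exceeded the small subunit median by 0.12 (log2), with both medians taken over the fold changes. Within single libraries, the median log2 CPM of the large subunit genes exceeded that of the small subunit genes by 0.20, 0.14 and 0.19 in the controls and by 0.17, 0.28 and 0.21 in the TMAO libraries. These ranges overlapped, with TMAO 1 between the controls. By class of transcript length, from the shortest genes to the longest as described next, the large and small subunit medians were both 0.69 (25 and 15 genes), then 0.50 and 0.53 (9 and 6), 0.85 and 0.63 (5 and 2), 0.77 and 0.47 (7 and 4) and 1.00 and 0.36 (2 and 2). The large subunit median was higher in the 3 longest classes, which hold few genes. Genes are not replicates, so no test is given for the subunits.

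Gene length moved with the fold change over all genes, in the direction of higher values for short genes. Length here is that of a gene's longest annotated transcript, and for protein-coding genes that of the longest protein-coding transcript. The 14590 genes tested with a length were put into 5 classes of like size, each with about 20% of the genes, whose median log2 fold changes were 0.50 (65 to 1399 bases), 0.28 (1400 to 2304), 0.04 (2305 to 3314), -0.21 (3315 to 4747) and -0.57 (4748 and longer). The median transcript was 1339 bases for the members and 2793 for all genes tested, and 40 of the 77 members were in the shortest class. There, 31 members were called higher, against 44.9% of all genes of that class, and 1 lower, against 11.0%, with a median of 0.69.

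Among the members, the medians of the longer classes lay between 0.44 and 0.83. In the second class, 14 of 15 members were called higher (background 44.0%) with a median of 0.50. In the third, 7 of 7 were called higher (35.4%) with a median of 0.83. In the fourth, 8 of 11 were called higher (25.6%) with a median of 0.66, and in the longest class 4 of 4 (15.5%) with a median of 0.44. The 4 longest members were Mrpl17 (7300 bases, log2 fold change 1.48), Mrps25 (6073 bases, 0.37), Mrps17 (5061 bases, 0.36) and Mrpl19 (5000 bases, 0.51). Across genes, Spearman's rho between length and log2 fold change was -0.34 over all 14590 genes and -0.05 over the 77 members. By subunit it was 0.07 over the 48 large and -0.30 over the 29 small subunit genes. On coding length and on genomic span, rho was -0.17 and -0.12 over the members, and -0.31 on each over all genes. Genes share the same 6 libraries and are not independent replicates. By coding length in place of transcript length, 50 members were in the shortest class (median 0.68, against 0.42 for all genes there), 22 in the second (0.54 against 0.16), 5 in the third (0.42 against -0.03) and none in the longest 2.

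**Figure D2:**
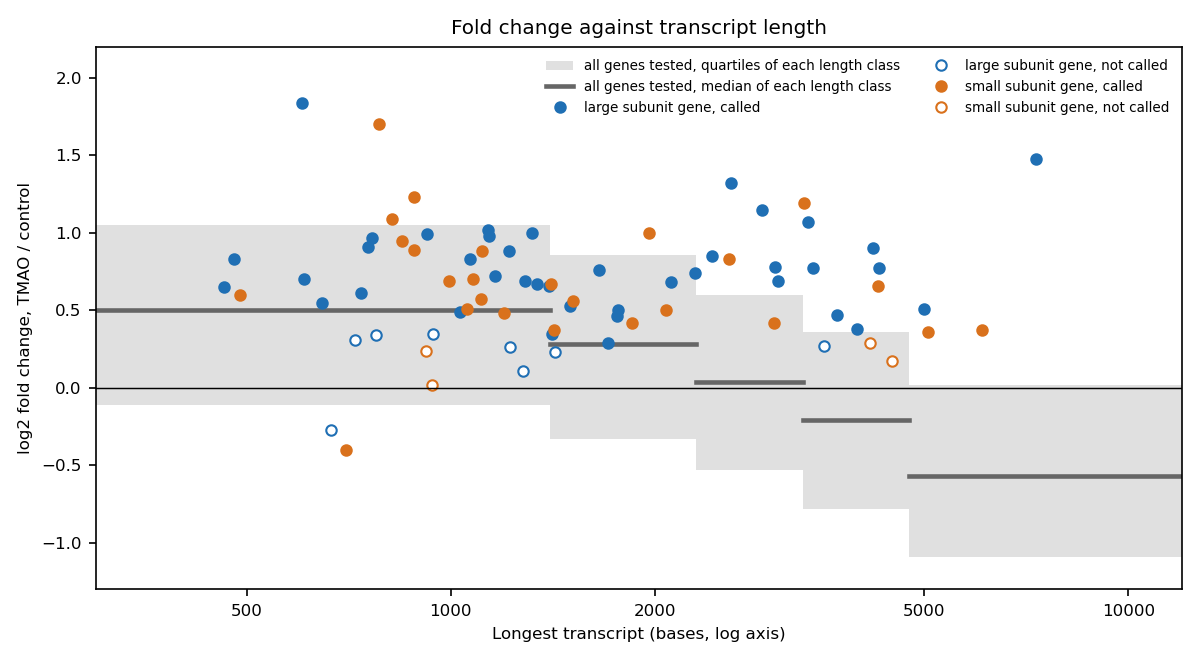
Log2 fold change, TMAO over control (y axis), against the length of the longest transcript in bases (x axis, log scale) for the 77 genes, large subunit blue and small subunit orange, filled where called. Grey boxes and bars give the quartiles and median of all genes tested in each length class; the medians step down from 0.50 to -0.57, while the members stay mostly above 0 at every length.

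The length trend of all genes was then taken out by an offset in the same edgeR model. With it removed, 43 members were called higher (background 32.4%) and 4 lower (28.2%). Their median log2 fold change was 0.44, against 0.03 for all genes. In the shortest class only 14 of 40 members were called higher, a share close to the 32.4% over genes of all lengths. Called lower were 4 of the 40, a smaller share than the 28.2% over all lengths, and the median was 0.30. Shares of all genes by length class were not counted with the trend removed. In the second class 7 of 15 were called higher (median 0.24), and in the 3 longest 7 of 7, 11 of 11 and 4 of 4. Of the 64 members called higher before, 40 kept the call and 24 lost it, and 3 gained it. The medians of the subunits were then 0.43 (large) and 0.45 (small). Mrpl54 remained higher at 1.35 (edgeR adjusted p = 7.18e-05), Mrps28 at 1.24 (edgeR adjusted p = 1.11e-04) and Mrpl17, one of the longest, moved up to 2.10 (edgeR adjusted p = 1.44e-06). Mrps18c (0.64, edgeR adjusted p = 0.0680), Mrpl10 (0.02), Mrpl38 (0.01) and Mrps9 (0.03) were no longer called. The 4 called lower were Mrps36 (-0.87), Mrpl42 (-0.75), Mrps15 (-0.42) and Mrpl40 (-0.26), all short genes. With a trend on coding length removed instead, 42 were called higher (background 33.5%) and 2 lower (29.2%), and with one on the genomic span 46 (32.9%) and 2 (28.8%). Mrpl17 was then at 1.13 (coding length) and 1.20 (genomic span), so its move up held only for transcript length. Mrps17 and Mrps25, also among the longest by transcript, lost their calls in both fits, and Mrpl19 with genomic span. Over the first result and 20 alternative fits, 30 members were called higher every time, 22 of the 48 large and 8 of the 29 small subunit genes. The share of all genes called higher in every fit was not counted, so these numbers have no background.

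The libraries of a group did not share 1 level. The median log2 ratio of the members to their control mean was -0.05, 0.15 and -0.09 in the controls and 0.45, 0.85 and 0.68 in the TMAO libraries. Control 2 was the highest control for 69 of 77 members, TMAO 2 the highest treated library for 65 and TMAO 1 the lowest for 74. Over all genes the same libraries stood apart by length: the median of the shortest length class minus that of the longest was -0.04, 0.25 and -0.19 in the controls and 0.78, 1.32 and 1.10 in the TMAO libraries. The order of the 6 libraries was the same in both measures. The part of the length trend in the members' difference was not tested beyond the offset above. Leaving out each library in turn left 55 to 71 members called higher and a median of 0.56 to 0.76.

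**Figure D3:**
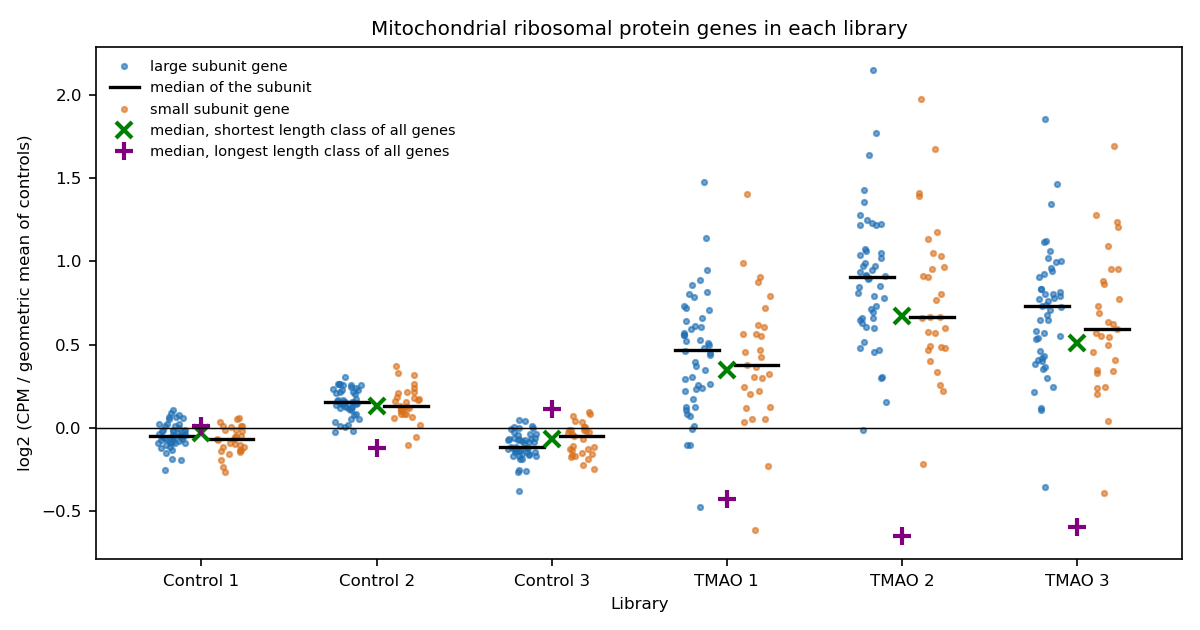
Log2 ratio of CPM to the geometric mean of the controls (y axis) in each of the 6 libraries (x axis), 1 point per gene, large subunit blue and small subunit orange, with black bars for subunit medians. Crosses and plus signs give the medians of the shortest and longest length class of all genes; the members' medians are highest in TMAO 2 and lowest, among treated libraries, in TMAO 1.

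Per kilobase of transcript, the members spanned a wide range of levels. On CPM per kilobase, averaged over both groups, Mrpl52 (167) and Mrpl20 (94.1) were the highest of the large subunit and Mrps21 (112) and Mrps18a (65.3) of the small, and Mrpl47 (3.92) and Mrps25 (3.37) were the lowest. Mrpl52 was at 54.0, 66.5 and 60.4 against 76.4, 118 and 90.1 CPM (log2 fold change 0.65 ± 0.15, edgeR adjusted p = 0.00299). Mrpl20 was at 46.4, 55.5 and 43.8 against 84.3, 100 and 101 CPM (0.97 ± 0.12, edgeR adjusted p = 3.84e-05). Mrps21, the relative of bacterial S21, was at 38.7, 48.6 and 42.8 against 53.4, 84.4 and 59.2 CPM (0.60 ± 0.16, edgeR adjusted p = 0.00798). All 3 rose without overlap, and with the length trend removed Mrpl52 (0.13) and Mrps21 (0.08) were no longer called. Mrpl47, at 8.88, 8.51 and 8.09 against 14.7, 21.8 and 17.2 CPM, rose without overlap (1.07 ± 0.15, edgeR adjusted p = 1.27e-04). A level per kilobase rests on the longest transcript, so a gene whose cells use a shorter one is given too low a level.

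In the annotation, 32 members share exonic bases with another gene and 45 share none. Over all genes tested, 33.0% were called higher and 32.7% lower. Of the 45, 35 were called higher and 1 lower, with a median log2 fold change of 0.60. Of the 32, 29 were called higher and none lower, with a median of 0.73. Mrps34, not called at 9.26, 14.0 and 10.6 against 11.6, 15.4 and 13.1 CPM, has 63.4% of its exonic bases opposite Mapk8ip3. Mrpl46 and Mrps11 (0.51 ± 0.15) overlap each other on opposite strands, and Mrpl43 (0.66 ± 0.17) has 33.4% of its exonic bases opposite Twnk, a mitochondrial DNA helicase that was also higher. Without a stated strand setting, reads in these stretches cannot be told apart.

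RefSeq promoter windows of 300 bases (250 before to 50 after the start, build GRCm38.p6) were found by symbol for 68 of the 77 members. No entry was matched for Mrpl4, Mrpl13, Mrpl15, Mrpl19, Mrpl38, Mrpl54, Mrps28, Mrps34 or Mrps35. Promoters of many nuclear genes for mitochondrial proteins are known to bind ETS family factors such as GABP, NRF1 and YY1. The 100 bases before the start are shown for 3 members at the top and 3 at the bottom of the range of log2 fold change among those with an entry, so that the ends of the range can be read side by side. Capitals mark a searched motif on either strand. They are chr7:105811088-105811187 (minus strand) for Mrpl17, chr11:115403652-115403751 (plus) for Mrpl58, chr17:46110904-46111003 (plus) for Mrps18a, chr4:126046828-126046927 (plus) for Mrps15, chr10:95501950-95502049 (minus) for Mrpl42 and chr13:100744660-100744759 (minus) for Mrps36.
Mrpl17: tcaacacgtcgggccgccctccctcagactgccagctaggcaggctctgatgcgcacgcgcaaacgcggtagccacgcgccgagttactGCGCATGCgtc
Mrpl58: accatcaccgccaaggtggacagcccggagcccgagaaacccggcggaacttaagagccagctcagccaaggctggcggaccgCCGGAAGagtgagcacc
Mrps18a: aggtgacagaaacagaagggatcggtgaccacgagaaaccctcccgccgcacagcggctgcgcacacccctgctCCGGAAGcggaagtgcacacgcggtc
Mrps15: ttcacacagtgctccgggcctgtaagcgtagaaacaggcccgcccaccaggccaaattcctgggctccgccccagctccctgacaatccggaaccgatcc
Mrpl42: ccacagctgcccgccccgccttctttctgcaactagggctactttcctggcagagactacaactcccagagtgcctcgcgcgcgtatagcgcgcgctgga
Mrps36: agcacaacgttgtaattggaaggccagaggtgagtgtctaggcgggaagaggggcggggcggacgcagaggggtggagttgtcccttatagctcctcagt

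Mrpl17 has the NRF1 letters, and Mrpl58 and Mrps18a the ETS letters, close to the start, while the printed stretches of Mrps15, Mrpl42 and Mrps36 hold none of the motifs. In the whole 300-base windows Mrpl42 holds the YY1 letters, Mrpl17 and Mrps18a hold the ETS and YY1 letters respectively beside those shown, and Mrps15 and Mrps36 hold none. The printed genes were chosen by their fold change. Of the members next below the top, Mrps30, Mrpl47, Mrpl46 and Mrpl12, all called higher, hold none of the motifs, while Mrpl57 and Mrps18c hold the ETS letters. Over whole windows and both strands, the ETS motif CCGGAAG was in 36.8% of the 68 members, against 20.4% of 9709 tested protein-coding genes and 9.93% of all 27025 genes with a window. The NRF1 motif GCATGCGC was in 11.8%, against 6% and 3.05%. The YY1 motif AAGATGGC was in 17.6%, against 5.34% and 3.19%. The E-box CACGTG, a site of MYC among other factors, was in 7.35%, against 11.6% and 8.09%. The ETS and YY1 motifs can overlap, since the last letters of one are the first of the other, and no member held the joined form. By subunit the ETS letters were in 33.3% of 42 large and 42.3% of 26 small subunit genes, and the NRF1 letters in 16.7% and 3.85%. The YY1 letters were in 14.3% and 23.1%, and the E-box in 9.52% and 3.85%. Of 58 members called higher with a window, 41.4% held the ETS letters, and of the 10 others 10%, a single gene. For the NRF1 letters these shares were 12.1% and 10%, for YY1 19% and 10%, and for the E-box 8.62% and 0%. With 10 genes on 1 side, a link of any motif to the calls was not tested. A match is a description of letters, and no match says only that these letters are not in this window.

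Other genes of mitochondrial translation were called in both directions. Of 5 mitochondrial ribosomal proteins under other symbols, 4 were called higher: Dap3 (log2 fold change 0.86 ± 0.12), Chchd1 (1.04 ± 0.16), Aurkaip1 (0.86 ± 0.17) and Gadd45gip1 (1.20 ± 0.18), while Ptcd3 stood at -0.24 ± 0.11. Of 12 translation factors, 5 were called higher and 4 lower, with a median of -0.02, so that neither count was far from the background of 33.0% higher and 32.7% lower over all genes. Guf1, an elongation factor of the organelle, was at 19.3, 20.5 and 25.9 against 12.0, 13.0 and 11.7 CPM (-0.84 ± 0.13, edgeR adjusted p = 2.70e-04). The gene 1700021F05Rik, an older symbol of Mtres1, was at 11.0, 13.8 and 11.7 against 18.8, 26.4 and 22.0 CPM (0.88 ± 0.15, edgeR adjusted p = 3.95e-04). In both genes the groups stood apart, in opposite directions.

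Of 26 genes for assembly of the mitochondrial ribosome and modification of its RNA, 12 were called higher (background 33.0%), 1 lower (32.7%) and 13 were not called, with a median of 0.32. Rcc1l was at 7.20, 8.68 and 7.44 against 25.0, 30.7 and 29.4 CPM (1.87 ± 0.13, edgeR adjusted p = 8.45e-07), and Trub2, a pseudouridine synthase, was at 18.4, 20.0 and 18.4 against 52.3, 56.3 and 52.8 CPM (1.51 ± 0.09, edgeR adjusted p = 3.98e-07). Both rose by at least 2-fold in every TMAO library against every control. Of 5 tested genes for membrane insertion and mRNA-specific activation, Letm1 was called higher (0.47 ± 0.09) and Taco1, a translational activator of cytochrome c oxidase subunit I, lower (-0.70 ± 0.19). Oxa1l (-0.18 ± 0.08), Lrpprc (-0.21 ± 0.10) and Rmnd1 (0.01 ± 0.10) did not pass, and Slirp was not tested, since its counts were near 0.

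Of 9 genes for mitochondrial transcription and DNA upkeep, 4 were called higher (background 33.0%) and 1 lower (32.7%). Mgme1, a nuclease of mitochondrial DNA, was at 10.2, 10.1 and 8.89 against 18.2, 20.8 and 18.7 CPM, and Twnk at 7.54, 7.64 and 7.05 against 12.7, 15.1 and 16.1 CPM, both without overlap and with a log2 fold change of 0.98. Among 8 tested nuclear regulators, 5 were called higher and 1 lower, against the same background. Myc was at 10.8, 13.5 and 11.1 against 70.2, 76.9 and 69.0 CPM (2.61 ± 0.11, edgeR adjusted p = 4.43e-08), and Ppargc1b, a coactivator of mitochondrial gene expression, at 4.32, 3.21 and 4.84 against 0.858, 0.853 and 0.626 CPM (-2.40 ± 0.25, edgeR adjusted p = 1.33e-05). These lists are shown for their counts, and a link to the ribosomal protein genes was not tested.

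The RNAs made inside the organelle split by kind. The ribosomal RNAs were higher, mt-Rnr1 at 234, 241 and 203 against 542, 815 and 639 CPM (1.56 ± 0.14, edgeR adjusted p = 6.43e-06) and mt-Rnr2 at 456, 487 and 467 against 1019, 1505 and 1123 CPM (1.37 ± 0.13, edgeR adjusted p = 1.03e-05). Of the 13 mitochondrially encoded protein genes, none was called higher (background 33.0%) and 11 were called lower (32.7%), with a median of -0.95. For subunits of respiratory complex I, which had the smallest p, mt-Nd2 was at 1275, 1448 and 1517 against 635, 628 and 606 CPM (-1.18 ± 0.09, edgeR adjusted p = 2.02e-06) and mt-Nd1 at 3092, 3557 and 3528 against 1696, 1738 and 1666 CPM. The groups did not overlap in either, while mt-Atp6 (-0.05 ± 0.13) and mt-Nd6 (0.26 ± 0.17) were not called. These genes are cut from shared precursors made on both strands, poly(A) selection takes ribosomal RNA only in part, and near-identical nuclear copies exist, so each single value is uncertain.

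**Figure D4:**
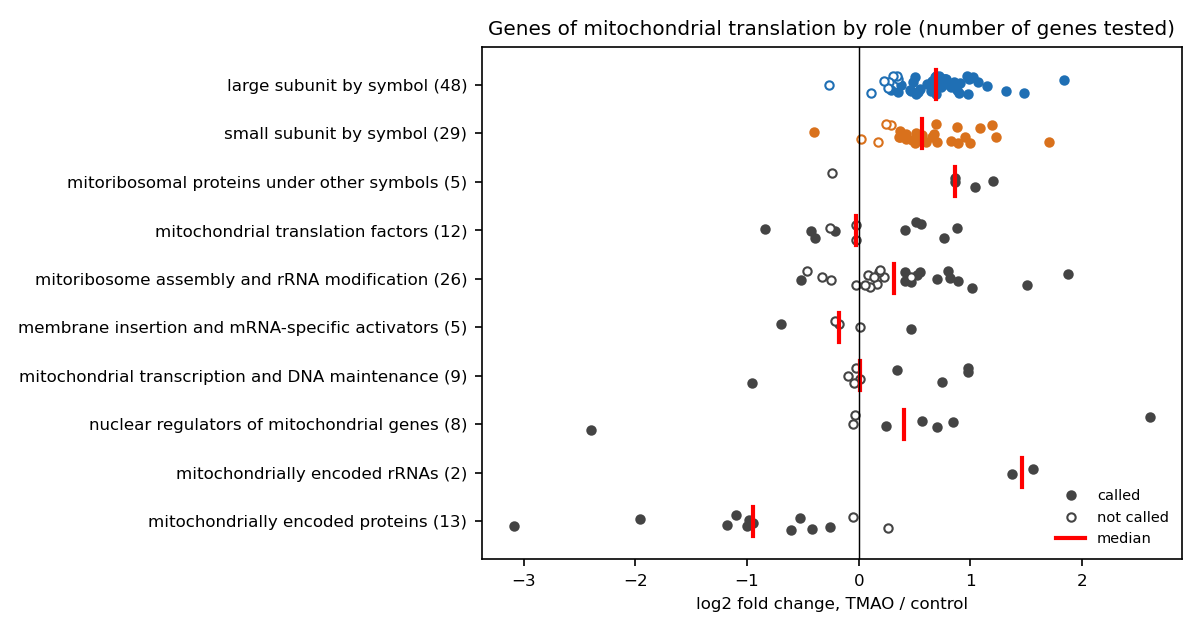
Log2 fold change, TMAO over control (x axis), of each tested gene in 10 lists (y axis, number of genes in brackets), 1 point per gene, filled where called, with a red bar at the list median. Medians run from 0.69 and 0.57 for the subunits to -0.02 for translation factors, 1.46 for mitochondrial ribosomal RNAs and -0.95 for mitochondrially encoded proteins.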

How the data were processed

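What the authors deposited is a table of whole-number read counts by Ensembl gene ID, 1 column for each of 6 libraries, not normalized. Per the labels' protocols, RNA was extracted with TRIzol, selected with oligo(dT) beads, fragmented and primed with random hexamers, and sequencers of 2 makers are named without a key to the libraries, so platform and group cannot be told apart. GRCm39 is the build per the submitters' processing notes. For the aligner, counter, strand setting and annotation release the entry is: not given in the sources used here. Columns were matched to samples by their descriptions. Of 25751 IDs, 25386 received symbols from GENCODE M21 (GRCm38), matched by ID and used for names, lengths and exon overlaps, with no coordinates printed from it. The 5 annotated pseudogenes with such symbols were left out.

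Counts were tested with edgeR 4.0.16 (R 4.3.3, limma 3.58.1): filterByExpr by group with a minimum count of 10, TMM factors, a quasi-likelihood F test of TMAO against control without covariates, and Benjamini-Hochberg adjustment over 14626 genes, threshold 0.05. The SE is the absolute log2 fold change over the root of F. The length trend was a loess curve (span 0.3) of log2 fold change on log2 length, entered as an offset. No 2 libraries of a group agreed within sampling noise (chi-square per degree of freedom 13 to 65.6). The steps were tested on simulated data. The labels do not say whether replicate numbers pair the samples, and no pairing was used. Deviations of same-numbered libraries correlated at 0.105, 0.314 and -0.194, and those of differently numbered ones at -0.42 to 0.34. So few values cannot settle whether the samples are paired.

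The members and lists were chosen with earlier results of these data known. Values in every library are given, in each subunit, for the 4 called members at the top and the 4 at the bottom of log2 fold change at a mean of at least 5 CPM, for called members that went against the majority, and for the 2 highest and the 1 lowest per kilobase. Lists of fewer than 8 genes are named in full by log2 fold change, the mitochondrial ribosomal RNAs also by library, and in the larger lists values by library are given for the 2 genes with the smallest p. Mrps5, Mrps15, Mrps34 and Mrpl42 were added after their values were seen. Alternatives were DESeq2 1.42.0, limma-voom, other scalings, filters and moderation, offsets for length and GC content, a replicate block and leaving out each library.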

Additional observations from a re-analysis of the deposited data

How the results depend on the processing

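The number of members called higher stayed at 64 with RLE or upper-quartile factors, library size only, a filter at 1 CPM in 3 libraries, DESeq2, limma-voom and both other moderations, and was 65 with no count filter and 62 with a GC trend removed. Trends on length moved more: 43 with the longest transcript, 42 with coding length and 46 with genomic span (both added after seeing the data), with medians of 0.44, 0.36 and 0.41 against 0.67. Among the 45 members that share no exonic base, also chosen after seeing the data, 35 were higher. The number called lower was 1, and 2 with library size only, no count filter, the coding length trend, the genomic span trend or without TMAO 2, and 4 with the length trend removed. The large minus small subunit median was 0.12, and -0.01 (length), 0.03 (coding length), 0.04 (genomic span) and 0.07 (GC content). Leaving out each library gave 55 to 71 higher, 1 to 2 lower, medians of 0.56 to 0.76 and subunit differences of 0.08 to 0.17. With the replicate block, 69 were higher and 2 lower (Mrpl42 and Mrps36), with a median of 0.67 and a subunit difference of 0.11. Whether the numbers pair the libraries is not stated in the labels. Mrpl40 reversed to -0.26 (length) and -0.25 (genomic span), Mrps15 to -0.42 (length), Mrps17 to -0.13 and Mrps14 to -0.05 (coding length) and Lrpprc to 0.34 (coding length) and 0.26 (genomic span); the cause was not tested beyond the offsets themselves. Over the 77 members and 20 alternative fits, 1409 of 1540 values kept direction and call. With 3 libraries a group, the smallest rise called was 1.22-fold (Mrpl10).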
